A study of Saccharomyces cerevisiae with 94 samples.

Results

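The spindle checkpoint and the chromosomal passenger complex were followed through 9 genes of the budding yeast Saccharomyces cerevisiae, out of 6444 in the table. The genes were taken by name. They were the 6 checkpoint genes MAD1, MAD2, MAD3, BUB1, BUB3 and MPS1, and the 3 passenger genes IPL1, SLI15 and BIR1. The spindle checkpoint holds cells before anaphase until every chromosome is attached to the spindle. Mps1, a protein kinase, marks the kinetochore, the protein assembly that ties a centromere to microtubules. Bub3 recognises these marks and brings the kinase Bub1. Mad1 then recruits Mad2, and Mad2, Mad3 and Bub3 bind Cdc20, the activator of the anaphase-promoting complex, which can then no longer trigger the loss of cohesion between sister chromatids. The passenger complex senses attachments that are not under tension. Ipl1 is its Aurora kinase, Sli15 its INCENP-like scaffold that activates Ipl1, and Bir1 its survivin-like subunit that directs it to centromeres.

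RNA was sequenced from 2 strains in the W303 background, MATa, each carrying rad5-535, can1-100 and ade2-1 and the auxotrophic alleles leu2-3, 112 of LEU2, trp1-1 of TRP1, ura3-1 of URA3 and his3-11, 15 of HIS3. Both lack SML1, which codes for an inhibitor of ribonucleotide reductase. In the control strain, sml1Δ, URA3 replaces the gene, and in the other, sml1Δ SSDDCS, it is replaced by HphNT. The latter strain, SSDDCS from here on, also carries extra copies of the replication factor genes SLD2, SLD3, DPB11, DBF4, CDC45 and SLD7 behind the galactose-inducible GAL1-10 promoter, integrated at marker loci. Cultures were grown in raffinose medium and held in G1 by the mating pheromone alpha factor. Both strains received galactose during the arrest, so the G1 samples had already been exposed to it, and the cultures were then released in galactose medium. Samples were taken in G1 and at 5, 10, 15, 20, 25, 30, 35, 40, 45, 50 and 60 min after release, and the comparison asks how replicating the genome early affects transcript levels. There were 4 libraries in 22 of the 24 groups and 3 in each group at 25 min. The replicate numbers name 4 cultures of each strain, and the libraries of 1 culture are not independent of each other.

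The 94 libraries held 8119387 to 21677438 reads in genes, and by the median over time points replicate 1 was the deepest culture of each strain. Values are normalised read counts, in which the size factor of the library divides the reads of each gene. The strain labels were checked first. All 6 over-expressed factors were higher in SSDDCS at 12 of 12 time points with no overlap between libraries, and URA3 was lower in SSDDCS at 12 of 12. Of the other marker genes, HIS3 and TRP1 were higher at 12 of 12, whereas LEU2, also a marker of the integrated copies, was lower at 11 of 12, all without overlap. The summed level of 5 a-cell genes was at least 54702 in every G1 library, the arrest sample of these MATa strains. At 30 min it was 779 to 1288 in sml1Δ and 1441 to 2001 in SSDDCS. The summed level of 5 pheromone-induced genes was then 652 to 784 against 1336 to 1738, and that of 3 alpha-cell genes 81.1 to 92.3 against 253 to 365. All 3 sums were higher in SSDDCS at 30 min without overlap, and their part in the results below was not tested. One culture stood apart in time. The library of sml1Δ replicate 4 labelled 50 min was at a smaller distance from the mean of the other sml1Δ cultures at 60 min (root mean square log2 distance 0.328) than at 50 min (0.487), and the library labelled 60 min was closer to their mean at 50 min (0.273 against 0.323). The calls and medians at 50 and 60 min are therefore also given with these 2 labels exchanged.

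The genes differed in level. Per kilobase of annotated length and averaged over the time course, BUB3 was the most abundant in sml1Δ at 642 ± 25.5 (SD over 4 cultures), followed by MAD2 at 562 ± 39.9. MPS1 at 319.7 ± 14.8, MAD1 at 311 ± 3.54, MAD3 at 290.0 ± 46.7 and SLI15 at 265 ± 11.8 came next, and the cultures of neighbours in this order overlapped, whereas those of BUB3 and MAD2 did not. BIR1 at 182 ± 8.18 and IPL1 at 171 ± 7.97 were lower, also overlapping, and BUB1 was the lowest at 94 ± 2.56. The median over 5813 genes with a length was 476.5 on this scale, so that only BUB3 and MAD2 lay above it and BUB1 lay at the 6.47th percentile. In SSDDCS the order was kept except that MAD3 (293) ranked above MAD1 (291), values closer than the spread of MAD3.

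The control strain showed 3 kinds of profile. IPL1, BUB1 and BUB3 rose at once after release. They were highest between 10 and 20 min in each sml1Δ culture, apart from BUB1 in replicate 3 (446 at 25 min, 426 at 20 min). Their means then fell to the end of the course, and SLI15 followed later. MPS1, MAD3, MAD1 and BIR1 were highest between 25 and 40 min. MAD2 moved the least. IPL1 (YPL209C, chrXVI:156490-157593, minus strand) was at 48.1, 57.6, 66.9 and 68.4 in the 4 G1 libraries of sml1Δ and at 254, 310.0, 321 and 327 at 5 min, a 4.99-fold rise with no overlap, or 2.32 (SE 0.15, limma adjusted p 2.86e-22) on the log2(value + 1) scale. BUB1 (YGR188C, chrVII:872044-875109, minus strand) was at 85.9, 107, 108 and 119 in G1 and at 344, 349.8, 396 and 409 at 5 min, or 1.83 (SE 0.16, limma adjusted p 2.25e-16). BUB3 (YOR026W, chrXV:379781-380806, plus strand) went from 199, 239.6, 255 and 265 to 835, 964, 995 and 1030.2, or 2.0 (SE 0.09, limma adjusted p 2.22e-30). In each of these 3 genes every 5 min library stood above every G1 library. The same genes rose in SSDDCS, by 2.15 for IPL1, 2.17 for BUB1 and 2.05 for BUB3, and there MPS1 was called too at 0.33 (SE 0.09, limma adjusted p 0.00182). Of the genes tested, 23.2% were called higher at 5 min than in G1 in sml1Δ and 25.6% in SSDDCS, so 3 of 9 and 4 of 9 are counts close to those shares. The size of the rise was less common: 98.6% of genes had a smaller value than IPL1, 97.9% than BUB3 and 97.1% than BUB1 in sml1Δ.

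The levels at the top and at the end show how far each profile moved. In sml1Δ, BUB1 went from 536 ± 87.5 at 15 min to 71.5 ± 19.2 at 60 min, IPL1 from 339 ± 15.5 to 56.7 ± 7.27 and BUB3 from 1126 ± 128 to 326 ± 40.9 (SD, n = 4). SLI15 (YBR156C, chrII:551104-553200, minus strand) started at 454 ± 113 in G1, reached 862 ± 55.8 at 20 min and ended at 213 ± 47.2. With 25 min left out, which replicate 2 lacks, all 4 sml1Δ cultures had their SLI15 maximum at 20 min. Replicate 3 was at 780 at 25 min, against 779 at 20 min. MPS1 (YDL028C, chrIV:400997-403291, minus strand) rose from 381 ± 14.8 in G1 to 1033 ± 41.2 at 30 min. With 25 min left out, its culture maxima lay at 30 or 35 min. Replicates 1 and 4 were higher at 25 min, at 1052 (1036 at 35 min) and 1046 (1043 at 30 min). MAD1 (YGL086W, chrVII:347119-349368, plus strand) rose from 542 ± 35.5 to 829 ± 24 at 40 min, with culture maxima between 35 and 45 min. MAD3 (YJL013C, chrX:409493-411040, minus strand) was lowest at 5 min, 296 ± 15.3, and highest at 25 min, 552 ± 61.6 (SD, n = 3), though its cultures peaked anywhere from 20 to 35 min. BIR1 (YJR089W, chrX:587718-590582, plus strand) ranged from 446 at 5 min to 607 at 40 min. MAD2 (YJL030W, chrX:387657-388247, plus strand) ranged from 304 at 40 min to 368 at 15 min, with group SDs of up to 39.6.

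**Figure D1:**
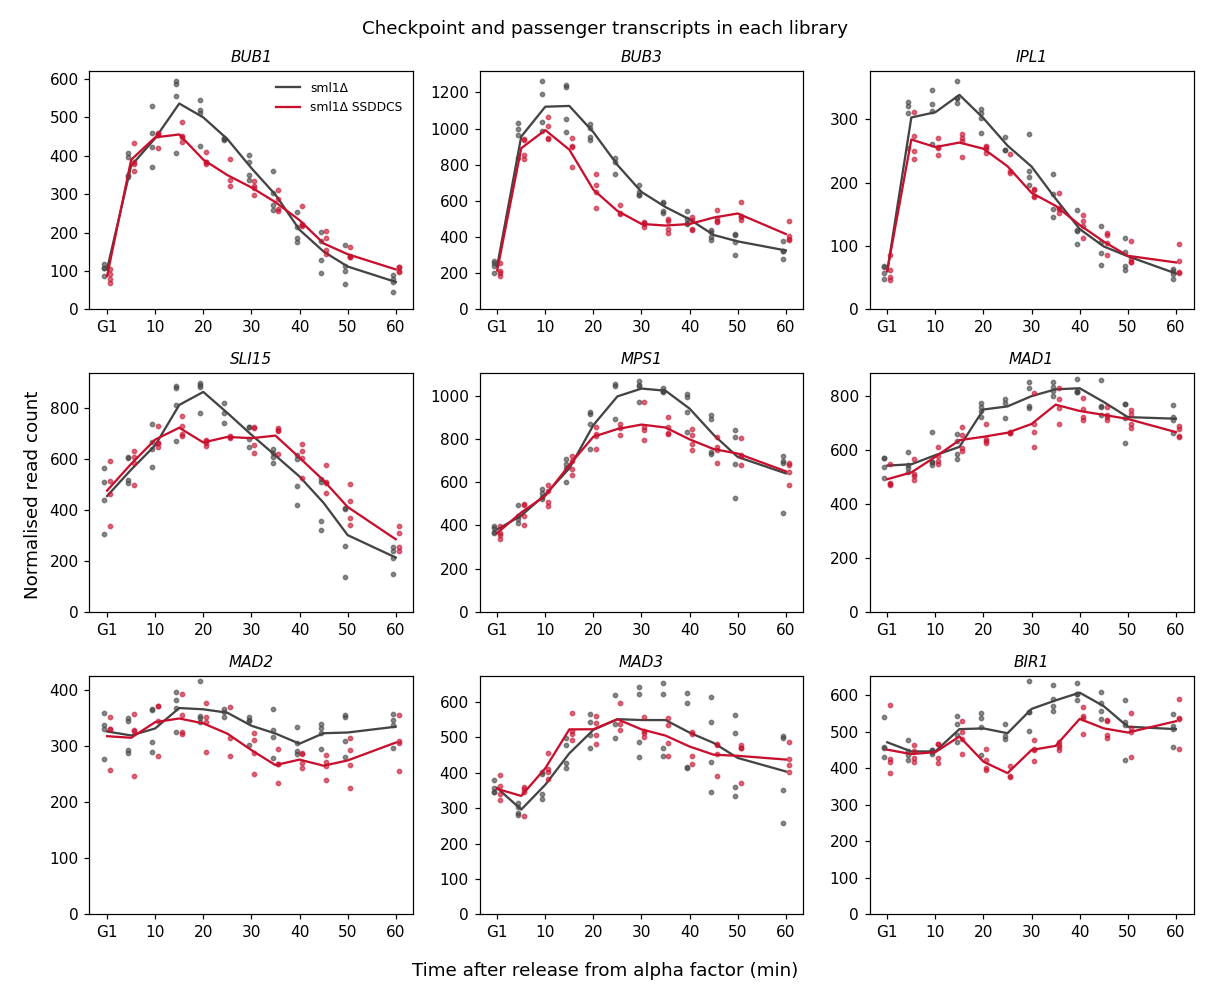
Normalised read count (vertical axis, from 0) against time after release in min (horizontal axis) for the 9 genes, with 1 point per library and lines through the group means, sml1Δ in grey and SSDDCS in red. BUB1, BUB3 and IPL1 climb within 5 min in both strains, and MAD2 stays between 224 and 415 in all libraries. The BUB3 mean in SSDDCS lies below the control from G1 to 40 min, without overlap of libraries from 15 to 35 min, and ends above it.

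A limma F-test over time called 8 of the 9 genes in sml1Δ and 9 of 9 in SSDDCS, against 83.5% and 86.8% of all genes tested. MAD2 was the exception in sml1Δ (adjusted p 0.326), and a fit with the replicate number as a block called it as well (limma adjusted p 0.00842). That fit called 91.6% of all genes over time in sml1Δ. Fixed steps of the course placed the changes, and 26 of 90 steps were called. Over the step from 20 to 30 min only BUB3 was called, lower in both strains, with -0.59 (SE 0.09, limma adjusted p 1.05e-06) in sml1Δ and -0.48 (SE 0.09, limma adjusted p 8.38e-05) in SSDDCS, beside 9.07% and 6.37% of all genes called lower. From 10 to 20 min MPS1 rose in both strains, by 0.67 (SE 0.09, limma adjusted p 6.16e-08) in sml1Δ and 0.60 (SE 0.09, limma adjusted p 4.34e-07) in SSDDCS. MAD1 and MAD3 rose over the same step in sml1Δ, by 0.37 (SE 0.07, limma adjusted p 6.98e-06) and 0.51 (SE 0.14, limma adjusted p 0.00491). Called higher over this step were 3 of 9 genes in sml1Δ and 1 of 9 in SSDDCS, against 9.42% and 14.3% of all genes. BUB3 was the gene that changed here in the other direction in SSDDCS, falling by 1.5-fold from 992 to 662, or -0.59 (SE 0.09, limma adjusted p 3.56e-07) on the log2 scale, where 12% of genes were called lower.

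The descent differed in extent. Between 30 and 40 min, BUB1, IPL1 and BUB3 fell in sml1Δ, with log2 changes of -0.84 (SE 0.16, limma adjusted p 8.98e-05), -0.83 (SE 0.15, limma adjusted p 4.64e-05) and -0.38 (SE 0.09, limma adjusted p 0.00186). That made 3 of 9 genes against 5.51% of all genes, while in SSDDCS 0 of 9 were called lower over that step, against 4.59%. The SSDDCS changes were -0.45 (SE 0.16, limma adjusted p 0.0441) for BUB1 and -0.47 (SE 0.15, limma adjusted p 0.0274) for IPL1. For BUB3 the change was -0.004 (SE 0.09, limma adjusted p 0.98). Between 40 and 60 min, 6 of 9 genes fell in sml1Δ against 11.4% of all genes. These were BUB1, with a log2 change of -1.55, SLI15 (-1.33), IPL1 (-1.14), BUB3 (-0.62), MPS1 (-0.57) and MAD1 (-0.21). With the 50 and 60 min labels of sml1Δ replicate 4 exchanged the count was 7 of 9, with BIR1 added, against 13.9%. In SSDDCS 3 of 9 fell, against 13.4%, namely BUB1 (-1.15), SLI15 (-1.09) and IPL1 (-0.87). The difference between the strains over a single step was not tested. With the block, 5 further steps passed: MAD3 and BIR1 from 40 to 60 min in sml1Δ (adjusted p 0.0044 and 0.00123), and in SSDDCS MAD3 from 10 to 20 min, BIR1 from 30 to 40 min and MPS1 from 40 to 60 min (adjusted p 0.0073, 0.00401 and 0.0038, limma with the block). In that fit 16.3% of all genes were called lower over the sml1Δ step. Over the SSDDCS steps, in the order given, 17.4% were called higher, 6.01% higher and 17.2% lower.

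Because the genes fell into an early and a later set, the DNA before their start codons was searched, from 250 bases before to 50 after the first base of the coding sequence, on both strands. The searched letters were ACGCGT, a site of the G1/S factor MBF, CNCGAAA, a site of the related factor SBF, and GTAAACA, a site of forkhead factors. Among the early genes, IPL1 held ACGCGT, 168 bases before its start, and BUB3 held CNCGAAA at 53 and 23 bases before its start, while SLI15 held it on the opposite strand, 127 bases before. BUB1 held none of the letters. Among the later genes, MAD3 and MPS1 held GTAAACA, 48 and 241 bases before the start, and MAD1 and BIR1 held none of the letters. GTAAACA also occurred on the opposite strand in IPL1 and in MAD2, which has no clear maximum. Of 5843 such windows in the annotation, 3.08% held ACGCGT, 14% CNCGAAA and 6.55% GTAAACA. No 2 matches overlapped. The matches describe letters in these windows and do not show binding. The stretches of 70 bases that hold the matches are shown for 3 early genes and for the 2 later genes with a match, from RefSeq assembly R64, 5′ to 3′ along the coding strand and with the searched letters in capitals.
IPL1: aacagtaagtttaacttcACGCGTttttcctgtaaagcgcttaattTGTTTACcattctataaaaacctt
BUB3: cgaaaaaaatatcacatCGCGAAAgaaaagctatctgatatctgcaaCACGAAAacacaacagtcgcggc
SLI15: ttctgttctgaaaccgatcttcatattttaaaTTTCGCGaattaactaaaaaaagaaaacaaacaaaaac
MPS1: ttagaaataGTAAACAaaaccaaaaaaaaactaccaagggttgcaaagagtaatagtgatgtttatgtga
MAD3: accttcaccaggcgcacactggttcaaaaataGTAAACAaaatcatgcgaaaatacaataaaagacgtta
They lie at chrXVI:157710-157779 on the minus strand, chrXV:379711-379780 on the plus strand, chrII:553290-553359 on the minus strand, chrIV:403472-403541 on the minus strand and chrX:411051-411120 on the minus strand. The capitals in IPL1 mark ACGCGT first and then the reverse complement of GTAAACA, and those in SLI15 mark the reverse complement of CNCGAAA.

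Likeness was measured over the 24 group means, as Pearson's r on the log2 scale. These points share cultures and time points, and the values are descriptions. IPL1 and BUB1 were the most alike pair of the 36 (r = 0.99), and each was close to BUB3 (0.92 and 0.89) and SLI15 (0.83 and 0.89), although BUB3 and SLI15 were less alike (0.65). MPS1 was close to MAD1 (0.92) and MAD3 (0.91). BIR1 was nearest to MAD1 (0.68), and MAD2 had no r above 0.42 with any of the others. The kinase and the scaffold of the passenger complex thus lay with BUB1 and BUB3, and its subunit BIR1 had r between -0.29 and -0.15 with those 4 genes.

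**Figure D2:**
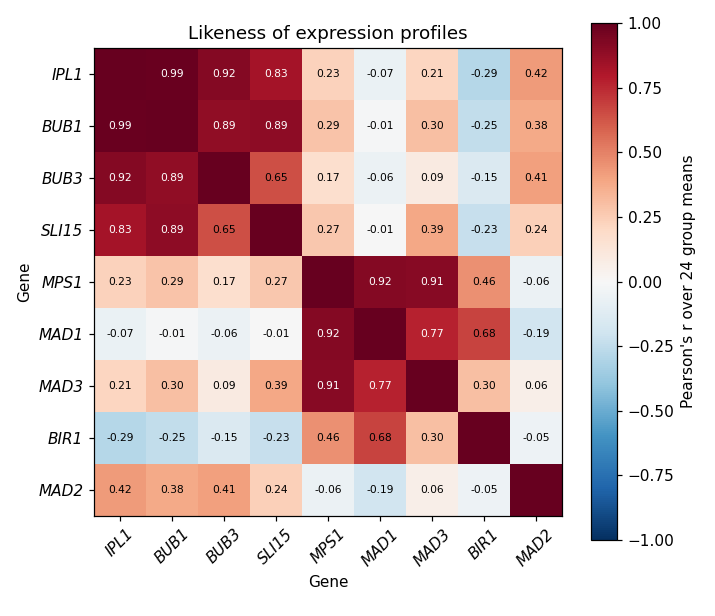
Pearson's r between the profiles of each pair of the 9 genes (both axes list genes, colour gives r), over 24 group means of log2(value + 1). The block of IPL1, BUB1, BUB3 and SLI15 has r from 0.65 to 0.99 and that of MPS1, MAD1 and MAD3 from 0.77 to 0.92, while MAD2 and BIR1 stand outside the first block.

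Over all genes, those most like each member by the same measure were as follows. For IPL1 they were DFR1, which codes for dihydrofolate reductase, CTF3, a kinetochore gene, and SPC42, a spindle pole body gene, with r of 0.99 each. For BUB1 they were IPL1, BNI5, a bud neck gene, and SHB17 (0.98 to 0.99), and for BUB3 they were RIO2, RTP1 and DUN1, a checkpoint kinase gene (0.97 to 0.99). MAD3 was most like SGO1, which codes for shugoshin, a protector of centromeric cohesion (0.98), then SGS1 and BTT1 (0.96 and 0.95). MPS1 was most like BRE1, VIK1 and FHL1 (0.98 each). SLI15 had ISC1 (0.97), PGM1 and PDI1 (0.94 each), and MAD1 had GTT3, YPK3 and NUP133 (0.97 each). BIR1 had CTK1, HST1 and SED5 (0.90 to 0.93), and MAD2 had MED4, MLC2 and SPC2 (0.90 to 0.93). As references of the phase, the G1 cyclin gene CLN2 was highest at 10 min, the histone gene HTA1 at 25 min in both strains, and the mitotic cyclin gene CLB2 at 60 min in sml1Δ and 50 min in SSDDCS.

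The strains were then compared at each time point. Of the 9 genes, 3 were called in 11 of the 108 pairs of gene and time: BUB3 was lower in SSDDCS at 20, 25, 30 and 35 min and higher at 50 and 60 min, BIR1 was lower at 20, 25, 30 and 35 min, and MAD1 was lower at 30 min. Of all genes, 43.3% were called at 1 or more time points, so that 3 of 9 is no larger a share. At G1, 5, 10 and 15 min 0 of 9 were called, against 0.515%, 0.281%, 0.203% and 2.72% of all genes. The count called lower was 2 of 9 at 20 min (7.84% of all genes), the same at 25 min (9.03%), 3 of 9 at 30 min (14.3%) and 2 of 9 at 35 min (12.9%). The count called higher was 1 of 9 at 50 min (5.39%) and again at 60 min (2.5%). At 40 and 45 min, 0 of 9 were called against 19.7% and 13.4%. Samples with the same replicate number deviated together, and the fit with the number as a block called 19 pairs in 7 genes, including all 11, where 57.2% of all genes were called at 1 or more time points. It added BUB3 at 15 and 45 min, MAD1 at 20 min, MAD2 at 35 and 45 min, MPS1 at 35 min, SLI15 at 50 min and BUB1 at 60 min. In that fit the shares of all genes called lower at 15, 20, 35 and 45 min were 2.76%, 11.8%, 18.4% and 9.98%, and those called higher at 45, 50 and 60 min were 11.1%, 7.2% and 4.11%. Without sml1Δ replicate 1 the count without the block was 5 of 108, and without SSDDCS replicate 2 or replicate 4 it was 7. With an estimated correlation within cultures it was 8, and the calls of MAD1 at 30 min and of BUB3 at 35 and 60 min were lost (limma adjusted p 0.0299, 0.0358 and 0.034). With the 50 and 60 min labels exchanged, 1 of 9 genes was called higher at 50 min, BUB3 (5.81% of all genes), and 3 of 9 at 60 min, BUB1, BUB3 and SLI15 (2.58%).

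**Figure D3:**
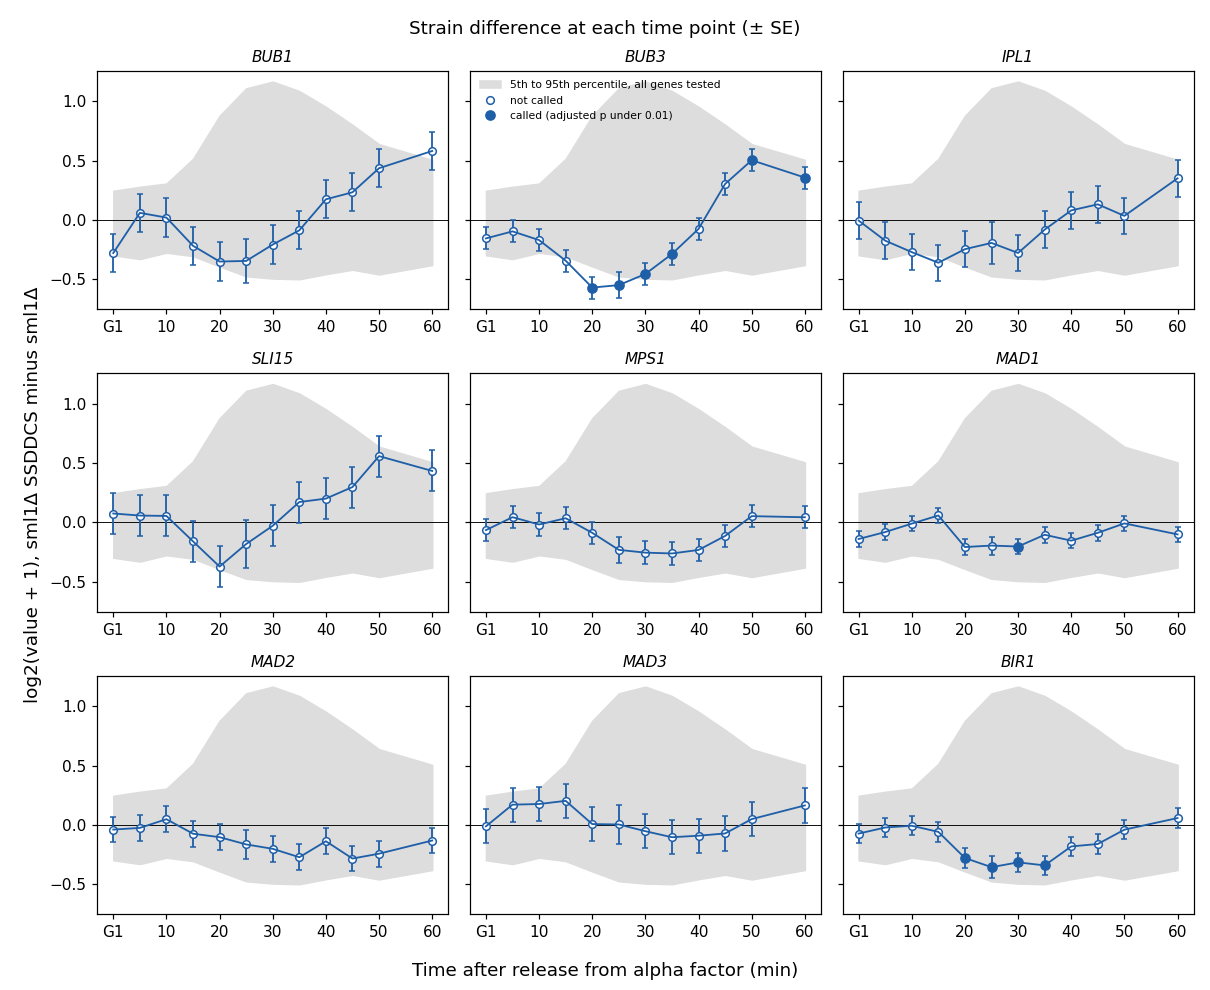
Strain difference (SSDDCS minus sml1Δ, log2 scale, vertical axis) against time after release in min for each gene, with bars of 1 SE, filled points where the limma adjusted p was under 0.01, and a grey band from the 5th to the 95th percentile of all genes tested. BUB3 crosses from -0.57 at 20 min to 0.50 at 50 min, and BIR1 dips to -0.36 at 25 min and returns to -0.04 at 50 min.

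The largest called difference below 0 was that of BUB3, which was also the only gene called higher at any time point. Differences of BUB1 at 60 min (0.58) and SLI15 at 50 min (0.56) were larger than its highest, 0.50, but were not called. At 20 min BUB3 levels were 938, 952, 1003 and 1028 in sml1Δ and 562, 652, 688 and 747 in SSDDCS. All 4 SSDDCS libraries lay below all sml1Δ libraries, a log2 difference of -0.57 (SE 0.09, limma adjusted p 1.34e-06). At 25 min they were 747, 814 and 836 against 525, 532 and 577, for which the model gave -0.55 (SE 0.11, limma adjusted p 3.21e-05). The 30 min levels were 631, 631, 649 and 688 against 458, 473, 479 and 482, or -0.46 (SE 0.09, limma adjusted p 4.05e-05). The libraries did not overlap at 35 min either, where the difference was -0.29 (SE 0.09, limma adjusted p 0.00965). By 40 min they overlapped, at 471, 478, 499 and 545 in sml1Δ and 442, 443, 496 and 509 in SSDDCS. The order was then turned. At 50 min sml1Δ was at 303, 372, 414 and 416 and SSDDCS at 494, 513, 519 and 597, again without overlap, a difference of 0.50 (SE 0.09, limma adjusted p 2.78e-05). At 60 min it was 279, 322, 325 and 379 against 386, 388, 408 and 486, or 0.36 (SE 0.09, limma adjusted p 0.00572). The SSDDCS mean was 464 at 35 min and 531 at 50 min, where the sml1Δ mean went from 566 to 376.

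Leaving out each culture in turn gave BUB3 differences of -0.63 to -0.50 at 20 min (adjusted p 2.72e-06 to 5.91e-05) and 0.40 to 0.55 at 50 min (adjusted p 3.96e-05 to 0.00192), so the calls at 20 and 50 min did not rest on 1 culture. At 35 min the call was kept only when SSDDCS replicate 2 was left out. In the other 7 cases the differences were -0.33 to -0.24, and the adjusted p was up to 0.0615 (without SSDDCS replicate 4). The 35 min call was also lost with edgeR (adjusted p 0.0118), and with equal totals (0.0389), quantile normalization (0.0162) or each time point alone (0.0308, limma). Each time point alone kept the call at 20 min and lost that at 50 min. At 60 min the call was kept only without SSDDCS replicate 3, SSDDCS replicate 4 or sml1Δ replicate 4. In the other 5 cases the differences were 0.28 to 0.36, and the adjusted p was up to 0.0569 (without SSDDCS replicate 2, limma). The 60 min call was also lost with quantile normalization and with each time point alone. With the labels of sml1Δ replicate 4 exchanged, the differences were 0.42 at 50 min and 0.44 at 60 min. The change of the difference over time was called by the strain-by-time F-test (limma adjusted p 4.65e-12). No annotated gene overlaps BUB3. HST3 lies 218 bases before it on the same strand and was looked at after the BUB3 values were known. HST3 went from 136 at 20 min to 1269 at 50 min in sml1Δ and from 163 to 1501 in SSDDCS, and its strain difference was 0.24 at 20 min and 0.28 at 50 min, not called at either.

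BIR1 was lower in SSDDCS from 20 to 35 min. In SSDDCS the mean was lower at 25 min than at 20 min, 386 after 418, and replicates 1, 3 and 4 each fell. The sml1Δ mean was 496 after 509, but the 25 min group lacks replicate 2, the highest at 20 min (550.2). Of the other sml1Δ cultures, replicates 1 and 3 fell and replicate 4 rose, from 435 to 478. Both means then rose to 40 min, to 607 and 535. At 25 min it was 478, 487 and 521 in sml1Δ and 375, 379 and 406 in SSDDCS, with no overlap, and the log2 difference was -0.36 (SE 0.09, limma adjusted p 0.00224). At 30 min it was 501, 553, 555 and 639.5 against 419.8, 449, 453 and 477, or -0.32 (SE 0.08, limma adjusted p 0.00118), and at 35 min 556, 571, 588 and 626 against 451, 457, 464 and 472, or -0.34 (SE 0.08, limma adjusted p 5.36e-04). At 20 min the libraries overlapped, at 435, 514, 536 and 550.2 in sml1Δ and 396, 400.2, 421 and 453 in SSDDCS, with a difference of -0.28 (SE 0.08, limma adjusted p 0.00655). The separation was still complete at 40 and 45 min, where the gene was not called, and it was gone at 50 min. Leaving out a culture kept the call at 35 min in all 8 cases (differences -0.37 to -0.31) and ended that at 20 min in all but those without SSDDCS replicate 1 or sml1Δ replicate 4 (differences -0.29 to -0.24 where it ended, adjusted p up to 0.0476), that at 25 min without SSDDCS replicate 3, SSDDCS replicate 4 or sml1Δ replicate 1, and that at 30 min without SSDDCS replicate 2 or sml1Δ replicate 1 (differences -0.34 to -0.32 at 25 and -0.28 to -0.25 at 30 min where they ended, adjusted p up to 0.015 and 0.014, limma). With each time point alone, only the BIR1 call at 35 min was kept. The strain-by-time F-test missed the limit at an adjusted p of 0.0118 and passed it with the block (2.42e-04, limma). The genes to either side, EMC2 and GRR1, looked at after the values of BIR1 were known, had differences of -0.36 and -0.26 at 30 min, and both were called lower there.

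Among the recruiting and effector proteins of the checkpoint, MAD1 was at 755, 763, 830.1 and 852 in sml1Δ and 612, 667, 698 and 809.6 in SSDDCS at 30 min. The highest SSDDCS library lay within the range of the control, and the difference was -0.20 (SE 0.07, limma adjusted p 0.00889). When a culture was left out, this call was kept only without SSDDCS replicate 3 or sml1Δ replicate 3. The adjusted p was up to 0.113 without SSDDCS replicate 2, where the difference was -0.14 (limma). The call was also lost with edgeR (adjusted p 0.0254), and with equal totals (0.0724), quantile normalization (0.0707) or each time point alone (0.128, limma). At 20 min the MAD1 libraries did not overlap, at 721, 745, 758 and 776 against 628, 632, 642 and 695, and the difference of -0.21 (SE 0.07, limma adjusted p 0.0118) was called only with the block (adjusted p 0.00725). MAD2 differed at 35 min by -0.27 (SE 0.11, limma adjusted p 0.0374) and, 10 min later, by -0.29 (SE 0.11, limma adjusted p 0.0483), which passed with the block (adjusted p 0.00147 and 0.00174). At 45 min its levels were 295, 324, 332 and 339.9 in sml1Δ and 239, 264, 272 and 285 in SSDDCS, without overlap. MAD3 was called at no time point by either fit, and its largest difference was 0.20 (SE 0.14, limma adjusted p 0.482) at 15 min.

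MPS1 reached a lower top in SSDDCS. At 35 min it was at 1015, 1019.7, 1021 and 1036 in sml1Δ and 824, 827, 856 and 904 in SSDDCS. The libraries did not overlap from 25 to 35 min, the difference at 35 min was -0.26 (SE 0.09, limma adjusted p 0.0215), and it passed with the block (adjusted p 0.00917). BUB1, IPL1 and SLI15 had the same order of strains around 20 min, below the limit of a call. At 20 min BUB1 was at 426, 511, 519 and 546 in sml1Δ and 379.7, 385, 385 and 410.3 in SSDDCS, and its difference was -0.35 (SE 0.16, limma adjusted p 0.0946). IPL1 was at 278, 302, 310.0 and 317 against 247, 254, 257 and 257, or -0.25 (SE 0.15, limma adjusted p 0.233). SLI15 was at 779, 882, 890.3 and 897 against 652, 661, 671 and 672, or -0.37 (SE 0.17, limma adjusted p 0.0976). In none of these 3 genes did the libraries overlap.

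Late in the course BUB1 and SLI15 had higher means in SSDDCS. At 60 min BUB1 was at 45, 71.9, 78.5 and 90.5 in sml1Δ and 97, 101, 109 and 109 in SSDDCS. The libraries did not overlap, and the difference of 0.58 (SE 0.16, limma adjusted p 0.0109) passed with the block (adjusted p 0.00612) and with the labels of sml1Δ replicate 4 exchanged (adjusted p 0.00573, limma). It was 0.38 (adjusted p 0.151) without sml1Δ replicate 1 and 0.37 (adjusted p 0.145) with quantile normalization, and the adjusted p was 0.0436 with an estimated correlation within cultures (limma). The BUB1 difference also changed over time by the strain-by-time F-test (limma adjusted p 0.00324), which called 2 of the 9 genes, BUB1 and BUB3, against 22.2% of all genes. With the block it called 3 (35% of all genes). The F-test's call of BUB1 was lost when any culture other than sml1Δ replicate 3 was left out, with adjusted p from 0.0115 without sml1Δ replicate 2 to 0.0592 without SSDDCS replicate 1 (limma). SLI15 at 50 min was at 137, 258, 402 and 407 in sml1Δ and 339.5, 368, 436 and 502 in SSDDCS, a difference of 0.56 (SE 0.17, limma adjusted p 0.0177) that passed with the block (adjusted p 0.00757). The lowest of these sml1Δ libraries was replicate 4. With its labels exchanged the difference was 0.36 (adjusted p 0.105), and without that culture it was 0.22 (adjusted p 0.382, limma).

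Read together, the 9 genes had median log2 strain differences of -0.25, -0.20 and -0.21 at 20, 25 and 30 min, where the median over all genes tested was -0.04, -0.02 and -0.04. At 30 min 9 of 9 lay below 0, as did 54.8% of all genes. The medians turned to 0.05 at 50 min and 0.16 at 60 min, beside -0.02 and 0.00 over all genes, with 6 and 7 of 9 above 0. With the labels of sml1Δ replicate 4 exchanged they were 0.03 and 0.18, beside -0.02 and -0.01, with 5 and 7 of 9 above 0. By library overlap alone, all SSDDCS libraries lay below all sml1Δ libraries for 2 of 9 genes at 15 min (6.92% of all genes) and for 5 of 9 at 20 min (14.2%). The count was 7 of 9 at 25 min (20.6%), 5 of 9 at 30 min (17%) and 3 of 9 at 35 min (16.7%), and BIR1 was still among 2 such genes at 40 and at 45 min (13.6% and 11%). The 2 genes without such a separation at 25 min, where each group held 3 libraries, were MAD2 and MAD3. All SSDDCS libraries lay above for 0 of 9 genes from G1 to 40 min, while 22.4% of all genes did so at 25 min, and for BUB3 at 45 min (11.4%) and 50 min (7.45%) and BUB1 and BUB3 at 60 min (6.06%). The same genes separated with the labels exchanged, beside 8.65% of all genes at 50 min and 5.81% at 60 min. In bulk samples a lower level can mean less RNA per cell or fewer cells at the stage that holds it, and these cannot be told apart.

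**Figure D4:**
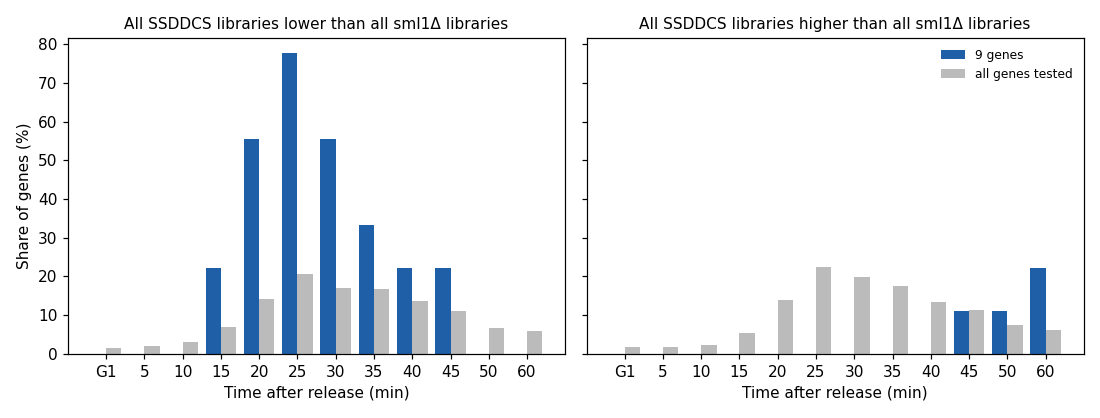
Share of genes in percent (vertical axis, from 0) for which every SSDDCS library lay below (left) or above (right) every sml1Δ library, at each time point in min, for the 9 genes (blue) and all genes tested (grey). The blue bars on the left stand at 5 of 9 genes at 20 min and 7 of 9 at 25 min beside 14.2% and 20.6% of all genes, and on the right they are at 0 until 45 min.

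The strains were also compared on the whole course. The mean of the 11 time points that every culture has was taken per culture, and 0 of 9 genes were called by limma, against 7.12% of all genes, with 2 of 9 at an unadjusted p under 0.05 against 33.4%, MAD1 (0.0452) and BIR1 (0.0461). MAD1 had culture means of 9.43 ± 0.02 in sml1Δ and 9.34 ± 0.03 in SSDDCS (log2, SD, n = 4), and BUB3 had 9.18 ± 0.04 and 9.09 ± 0.03. For both the 2 sets of cultures did not overlap, and the exact two-sided permutation test gave p = 0.0286, which is the smallest p that 70 splits of 4 and 4 cultures allow. The test was run on 9 genes with no adjustment, and for the other 7 that p ranged from 0.0857 for BIR1 to 0.8 for MAD3.

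The partners and targets of these proteins were read from a list of 53 genes, of which 51 were tested. At 30 min 6 of 51 were called lower and 5 of 51 higher in SSDDCS, shares below the 14.3% and 16.9% of all genes, and the list's median was -0.16. At 20 min 5 were lower and 2 higher (7.84% and 10.1% of all genes), at 50 min 0 and 1, and from G1 to 10 min none was called. The lower genes at 30 min were 2 of 10 of the outer kinetochore, 3 of 10 of the Dam1 ring, and CDC14. NUF2, of the Ndc80 complex, was at 346 ± 39.1 in sml1Δ and 214 ± 27.6 in SSDDCS (SD, n = 4), a log2 difference of -0.69 (SE 0.13, limma adjusted p 1.38e-05). NNF1, of the MIND complex that links inner and outer kinetochore, was at 787 ± 133 in sml1Δ and 516 ± 31 in SSDDCS (SD, n = 4), a log2 difference of -0.59 (SE 0.16, limma adjusted p 0.0015), and SPC19, of the Dam1 ring, at 305 ± 50.5 in sml1Δ and 206 ± 15.4 in SSDDCS (SD, n = 4), a log2 difference of -0.55 (SE 0.14, limma adjusted p 9.74e-04). DUO1 and ASK1 of the Dam1 ring, and the phosphatase gene CDC14, made up the 6. The higher genes were those of the centromere protein Mif2, of the inner kinetochore protein Cep3 and of subunits of the anaphase-promoting complex. MIF2 was at 499.7 ± 40.7 in sml1Δ and 1015 ± 65.3 in SSDDCS (SD, n = 4), a log2 difference of 1.02 (SE 0.15, limma adjusted p 1.02e-07). The 13 subunits of the anaphase-promoting complex had a median of 0.01, and 3 were called higher. Of these APC1 was at 632 ± 44 in sml1Δ and 977 ± 117 in SSDDCS (SD, n = 4), a log2 difference of 0.62 (SE 0.09, limma adjusted p 2.01e-08) and DOC1 at 56 ± 7.09 in sml1Δ and 98.8 ± 19.2 in SSDDCS (SD, n = 4), a log2 difference of 0.80 (SE 0.19, limma adjusted p 4.91e-04), and APC11 was the third. With quantile normalization the DOC1 difference was 0.27 (limma adjusted p 0.302) and not called. Among the direct targets, 0 of 5 genes of the anaphase switch were called at 20, 30 or 50 min, and their median was -0.30 at 30 min.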

How the data were processed

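RNA-seq was performed on 94 libraries from 8 cultures. The deposited values are signal: the authors mapped the reads, counted them in genes and scaled the counts with size factors from DESeq2, 1 per library. Per the submitters' processing notes the tools included cutadapt, TopHat2 (2.0.6) and DESeq2 with the sacCer3 build, whereas the study's methods name bowtie2 and the S288C R64 reference. Counting by strand is not described, and no other annotated gene overlaps the 9 genes. Of 96 columns, 2 matched no sample and were not used. The scaling could be undone, with 100% of values giving whole reads to within 0.0001. No 2 libraries of a group agreed within sampling noise (lowest chi-square per degree of freedom 10.7 over 138 pairs).

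A limma model (version 3.58.1, R 4.3.3) that lets the variance depend on the mean was fitted to log2(value + 1) of 6414 genes with a mean of at least 10, over 24 group means. Folds on this scale understate changes of low genes. P-values were two-sided, adjusted by Benjamini-Hochberg within a contrast over all genes tested, and called under 0.01. Gene counts run over 6404 genes, without the over-expressed factors and the markers. Percentages of all genes called stand beside the counts. Because libraries of 1 culture are related, p-values at single time points do not count cultures as the only replicates. Deviations of same-numbered cultures from their strain's means correlated (r = 0.688, 0.346, 0.317 and 0.202), so the replicate numbers were taken to pair the cultures and a block on the number was fitted as an alternative. The cultures of sml1Δ replicate 3 and SSDDCS replicate 4 correlated more (0.43).

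The genes named were the 9 genes, up to 3 called pathway genes of each sign with the largest difference at 30 min, the 3 genes most like each member, and the references of phase and label. DUO1, ASK1, CDC14, CEP3 and APC11 were named to complete counts. The neighbours HST3, STI1, EMC2, GRR1, CCT3, VTC4 and SRP72 were named after values were seen. The members and lists were chosen with earlier results of these data known. The fit was tested on simulated counts drawn without a culture effect, so that test cannot show how p-values hold for related libraries. Other settings were pseudocounts of 0.1 and 5, no filter, equal totals, quantile normalization, edgeR (4.0.16) and DESeq2 (1.42.0) on recovered reads, each time point alone, a correlation within cultures (0.376), exchanged labels and leaving out each culture. Sequences and positions are from RefSeq, assembly R64.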

Additional observations from a re-analysis of the deposited data

Results flagged for a closer look

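The strain difference of BUB3 and that of BUB1 changed over time, as tested by the limma F-test of strain and time (adjusted p 4.65e-12 and 0.00324).

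A library lay far from the other 3 of its group in 14 of 198 groups of 4 libraries, and chance flags about 1 in 20 groups. Of these, 8 were libraries of replicate 1, the most deeply sequenced culture of each strain. In sml1Δ these were MAD1 at 40 min (865 against at most 819.7 in the others), MAD2 at 30 min (302 against at least 345) and MPS1 at 60 min (457 against at least 691). In SSDDCS they were MAD1 in G1 (548), MAD3 at 5 min (278) and 50 min (372), BUB1 at 10 min (420.3) and SLI15 at 35 min (617).

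Replicate 3 of sml1Δ stood apart for MAD1 at 10 min (667), MAD2 at 20 min (415) and SLI15 at 20 min (779). Replicate 2 of SSDDCS stood apart for BUB1 at 40 min (270.2) and 50 min (162) and for IPL1 at 50 min (109).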

How the results depend on the processing

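Under 19 other settings, 34 single results gave 637 values, and no strain difference among them changed sign. The F-test statistics among them cannot change sign. Of the 637 values, 546 stayed on their side of the call limit, 56 fell short of it and 35 passed it. The BUB3 differences at 20, 25 and 30 min and the BIR1 difference at 35 min kept their calls under all of them. Of the 108 pairs of gene and time, 11 were called, and other settings gave 5 (each time point alone, which tests with far fewer libraries), 19 (replicate block), 16 (labels of sml1Δ replicate 4 exchanged), 15 (DESeq2), 8 (correlation within cultures) and 10 to 12 (edgeR, equal totals, quantile normalization, pseudocounts, no filter). Similar counts need not hold the same pairs. With quantile normalization MAD1 at 30 min and BUB3 at 35 and 60 min were lost, while MAD2 at 35 and 45 min passed. Leaving out a culture gave 5 to 13, with 5 without sml1Δ replicate 1 and 7 without SSDDCS replicate 2 or 4. Of the 9 genes, 2 had a strain difference that changed over time, and the count was 4 with the labels exchanged, 1 with quantile normalization and 1 to 3 without a culture. Time alone called 8 genes in sml1Δ in all of these and 9 with the replicate block, and 8 or 9 in SSDDCS. The replicate block changed no call beside those given in the report, and 31 of 90 steps were called with it against 26 without. The culture means gave 0 calls in all fits made. Causes were not tested. No member had a value of 0, and precision is limited by the 3 or 4 libraries of each group.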

Other observations

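The strain differences of BUB3 and BIR1 were set beside their neighbours on the chromosome, chosen after the values were seen. STI1, which codes for a co-chaperone and lies 246 bases after BUB3, was higher in SSDDCS in G1 (7409 against 4669 in sml1Δ, a log2 difference of 0.66), at 40 min (0.41), at 45 min (0.48) and at 50 min (0.46), all called. At 20 min, when BUB3 was lower in SSDDCS, the STI1 difference was 0.26 and not called. EMC2, 344 bases before BIR1 and on the other strand, was called lower in SSDDCS at 25, 30, 35, 40 and 45 min, with differences from -0.28 to -0.36. GRR1, 289 bases after BIR1 and also on the other strand, was called lower from 20 to 45 min, with differences from -0.21 to -0.30. Of all genes, 5.32% to 14.3% were called lower at the time points from 20 to 45 min. BIR1 itself was called from 20 to 35 min only. Whether BIR1, EMC2 and GRR1 share a cause was not tested. Neighbours of MAD3 and IPL1, which were called at no time point, were called lower at 30 min too. These were CCT3 (-0.30) and VTC4 (-0.62) beside MAD3, and SRP72 (-0.35) beside IPL1. Apart from these, EMC2 and GRR1, no gene next to a member was called at 30 min in either direction. The distance from the nearest annotated origin of replication was 22264 bases for BIR1 and 42290 for BUB3, and the median was 11430 over the 9 genes and 10062 over 5813 genes.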
